A study of Mus musculus with 36 samples.

Results

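Cells of the mouse macrophage line RAW264.7 were grown for 72 h with IFNγ at 5 ng/ml together with 100 μg/ml of one of a pair of short synthetic peptides, and the 2 peptides were compared directly by RNA-seq. The comparison rests on 6 of the 36 libraries of the series, which are 3 with the peptide 65–79*SE and IFNγ (called SE here) and 3 with the peptide 65–79*PE and IFNγ (PE), taken by their labels as replicates 1–3 of each group. Both peptides cover the same stretch of the human HLA-DRβ chain. 65–79*SE carries the allele 0401 version, the shared epitope linked to risk of rheumatoid arthritis, and 65–79*PE carries the allele 0402 version, the protective epitope. Dose, cytokine, duration and the change of medium at 48 h were the same for both peptides, so the groups were compared at 1 dose and 1 time. A difference between the peptides cannot be told apart from one between their preparations or cultures. Replicates 1–3 of PBS, the control without peptide, are given beside the peptide groups as a background. All cells were of 1 line, so the libraries do not sample different animals, and the labels do not say which libraries came from separate cultures. P-values therefore measure the spread between these libraries.

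Macrophages read IFNγ through a receptor that activates the kinases JAK1 and JAK2 and, through them, transcription factors in the nucleus. This switches on the genes of antigen presentation, guanylate binding proteins and nitric oxide synthesis that make up the pro-inflammatory state called M1. Many inflammatory chemokine and cytokine genes are driven instead by NF-κB and by the MAP kinase pathways, whose feedback inhibitors are induced together with their targets. Sterol and fatty acid synthesis genes are under the SREBP transcription factors and are a separate axis of macrophage activation.

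The 6 peptide libraries held 29.3 to 33.8 M counts, and a count of 0 leaves room for 3 counts, equal to 0.0887 to 0.102 CPM (counts for each 1 M counts of the library). The cell label held against marker genes except Mertk, a macrophage marker at 0 to 0.302 CPM that was not tested. The 9 macrophage markers summed to 6096–6453 CPM with SE, 5272–5454 CPM with PE and 7308–8194 CPM with PBS, with Lyz2 as the largest member. Marker sums for T and NK cells, B cells, neutrophils, dendritic cells, fibroblasts, epithelium and endothelium were between 0 and 2.08 CPM. The dendritic cell sum held Flt3, Zbtb46 and Xcr1 and not Clec9a, which was alone at 5.23 to 7.49 CPM with SE and 2.83 to 3.92 CPM with PE. Log2 CPM values correlated across genes at 0.993 to 0.994 between SE libraries, at 0.992 to 0.993 between PE libraries and at 0.983 to 0.989 between an SE and a PE library, so no library stood apart from its group. Both peptide groups carried the IFNγ response and the PBS libraries did not. H2-Aa, a chain of the class II antigen-presenting molecule, was at 587, 603 and 675 CPM with SE and at 1011, 931 and 912 CPM with PE, against 0.155, 0.136 and 0.106 CPM with PBS, although the title of the PBS samples names the cytokine. In a contrast against PBS the effect of the peptide and that of IFNγ cannot be told apart, and PBS values are given here only to place the levels. Replicates 4–6 were not used because the libraries labelled SE lacked that response there, with H2-Aa at 0 to 0.155 CPM against 364–499.6 CPM in the PE libraries of that set, where 5.76% of 16845 genes were called higher and 8.1% lower with SE.

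Of 15343 genes tested, 933 (6.08%) were separated between the peptides by more than 1.5-fold with an adjusted p below 0.05 in edgeR's quasi-likelihood test with Benjamini-Hochberg adjustment. A gene past both limits is described as called. Higher levels with SE were the larger side, with 688 genes (4.48%) against 245 genes (1.6%) that were lower with SE. By the adjusted p-value alone 3628 genes (23.6%) differed and were divided nearly evenly. Of these 1932 (12.6% of all) were higher and 1696 (11.1%) lower with SE, so the asymmetry lay in the genes with the larger fold changes. Counts for gene lists below are to be read against these shares of all genes. The median log2 fold change over all genes tested was -0.01. The count of called genes fell to 600 without replicate 3 of every group, with 457 higher and 143 lower.

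**Figure D1:**
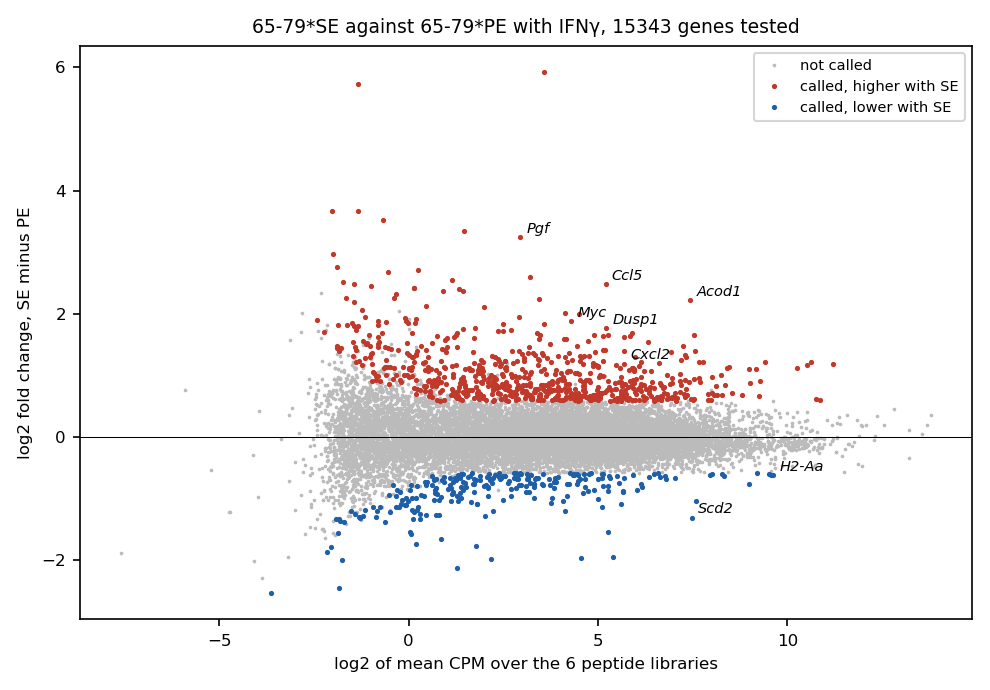
Each point is 1 of the 15343 genes tested, with the log2 of its mean CPM over the 6 peptide libraries on the x axis and the log2 fold change of SE minus PE on the y axis. Red points (688) were called higher with SE and blue points (245) lower. The red points reach a log2 fold change of 5.93 and the blue points -2.53.

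The chemokine Ccl5, which attracts T cells and monocytes, showed the clearest difference of all genes. It was at 68.4, 60.8 and 57.6 CPM in the SE libraries and at 10.8, 11.4 and 11.2 CPM in the PE libraries, with PBS at 0.96, 1.23 and 1.27 CPM. The groups did not overlap, and the fold change was 5.59 (log2 2.48, 95% interval 2.30 to 2.67, adjusted p = 2.83e-09 by edgeR's quasi-likelihood test). Ccl5 lies on chromosome 11 at 83525778–83530518 of GRCm38 on the minus strand. Over all genes tested, 44.6% had groups that did not overlap, so lack of overlap alone was common in 3 against 3 libraries. In bulk RNA, more cells with a transcript and more transcript per cell cannot be told apart, for Ccl5 and for every gene below.

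The other 11 genes that make up the 12 largest rises among genes with a mean of at least 10 CPM serve metabolism, signalling and protein folding. Acod1, which makes itaconate from a citric acid cycle intermediate in activated macrophages, was at 314, 234 and 304 CPM with SE and 57.0, 60.1 and 65.2 CPM with PE, a 4.68-fold difference (log2 2.23, interval 1.95 to 2.50). The transcription factor gene Myc was at 33.0, 28.4 and 30.9 CPM against 8.99, 8.25 and 7.92 CPM, 3.67-fold higher. Dusp1, a phosphatase that switches off MAP kinases, was at 61.6, 51.4 and 59.0 CPM against 17.4, 16.97 and 16.1 CPM, 3.41-fold higher. For these 3 genes PBS was below both peptide groups, at 15.6 to 22.9 CPM for Acod1, 1.33 to 4.22 CPM for Myc and 5.02 to 7.59 CPM for Dusp1.

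The kinase gene Pim1 was at 96.5, 80.4 and 97.3 CPM with SE and 29.2, 29.0 and 27.0 CPM with PE. Upp1, a uridine phosphorylase of nucleotide salvage, was at 61.8, 49.7 and 62.9 CPM against 19.3, 17.8 and 17.9 CPM, from under 0.39 CPM in each PBS library. Dio2, the enzyme that activates thyroid hormone, was at 22.2, 16.5 and 17.4 CPM against 5.68, 5.68 and 4.34 CPM. These 3 genes were above PBS in every peptide library, and their folds of SE over PE were 3.22, 3.17 and 3.57. A different order was seen for Dmpk, a protein kinase gene, which was at 18.9, 15.1 and 19.7 CPM with SE while PE (3.20 to 4.21 CPM) and PBS (2.69 to 4.57 CPM) covered the same range. Rragd, a small GTPase of amino acid sensing by mTORC1, was likewise at 15.1 to 18 CPM with SE and at 4.60 to 5.74 CPM with PE, inside the PBS range of 3.13 to 7.03 CPM. Gda, a guanine deaminase, was at 13.4 to 17.7 CPM with SE and 4.64 to 5.24 CPM with PE, and here the PBS libraries, at 14.6 to 27.9 CPM, lay with SE.

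The last pair of this group encodes the inducible chaperone HSP70. Hspa1a was at 33.9, 29.3 and 20.1 CPM with SE against 7.44, 6.80 and 6.51 CPM with PE, and Hspa1b at 43.8, 37.0 and 27.5 CPM against 9.26, 8.78 and 9.21 CPM. The genes are near-identical copies whose reads cannot be divided reliably, so they are best read as 1 signal, which was about as large in both (4.01-fold and 3.97-fold). Within SE, replicate 3 was the lowest for both and still above every PE library.

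Among genes with a mean of at least 10 CPM the largest fall was that of osteocalcin, the product of Bglap and its near-identical copy Bglap2, genes known from osteoblasts. Bglap was at 8.78, 10.5 and 9.24 CPM with SE and 33.9, 33.7 and 43.4 CPM with PE, and Bglap2 at 16.3, 20.1 and 15.9 CPM against 58.8, 64.1 and 79.0 CPM. PBS was lowest for both genes, at 2.95 to 3.71 and 5.59 to 6.64 CPM, so both peptide groups were above PBS and PE the further. The log2 fold changes were -1.96 and -1.95, which for the reason given are 1 signal. Bglap was on the study's own list of genes raised with PE, a list drawn from these libraries among others.

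Lipid synthesis genes followed among the falls. Scd2 and Scd1 encode stearoyl-CoA desaturases, which make monounsaturated fatty acids. Scd2 was at 90.8, 103 and 113 CPM with SE, 245, 265 and 251 CPM with PE and 312, 424 and 469 CPM with PBS, an order of SE, PE, PBS without overlap. Scd1 was at 18.7, 22.1 and 23.1 CPM with SE and 44.1, 45.02 and 38.6 CPM with PE, with PBS at 41.8 to 60.4 CPM. Their log2 fold changes were -1.31 (interval -1.57 to -1.05) and -1.0002 (interval -1.26 to -0.74). Both genes were thus lowest with SE.

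Among the remaining falls, Kbtbd11, a Kelch-repeat protein gene, had the same order, at 10.5 to 10.6 CPM with SE, 23.3 to 25.8 CPM with PE and 85.1 to 100.7 CPM with PBS. Pi16, a secreted peptidase inhibitor, was at 17.3, 22.6 and 19.1 CPM with SE and 53.5, 53.4 and 64.5 CPM with PE, and PBS, at 31.0 to 41.5 CPM, lay between. The actin-binding gene Avil (116 to 144 CPM against 223 to 305 CPM) and the mitotic cyclin gene Ccnb2 (17.5, 21.6 and 25.9 CPM against 50.4, 48.2 and 43.7 CPM) were also 2.05-fold and 2.19-fold lower with SE. Fkbp11, a prolyl isomerase of the endoplasmic reticulum, was at 25.9 to 34.9 CPM against 60.2 to 74.9 CPM, with PBS near PE at 59.8 to 65.9 CPM. Tmem51 and 2610318N02Rik, which have no function stated here, were 2.11-fold and 1.98-fold lower with SE. These 11 falls had adjusted p-values between 2.29e-07 and 0.000154 in the quasi-likelihood test.

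**Figure D2:**
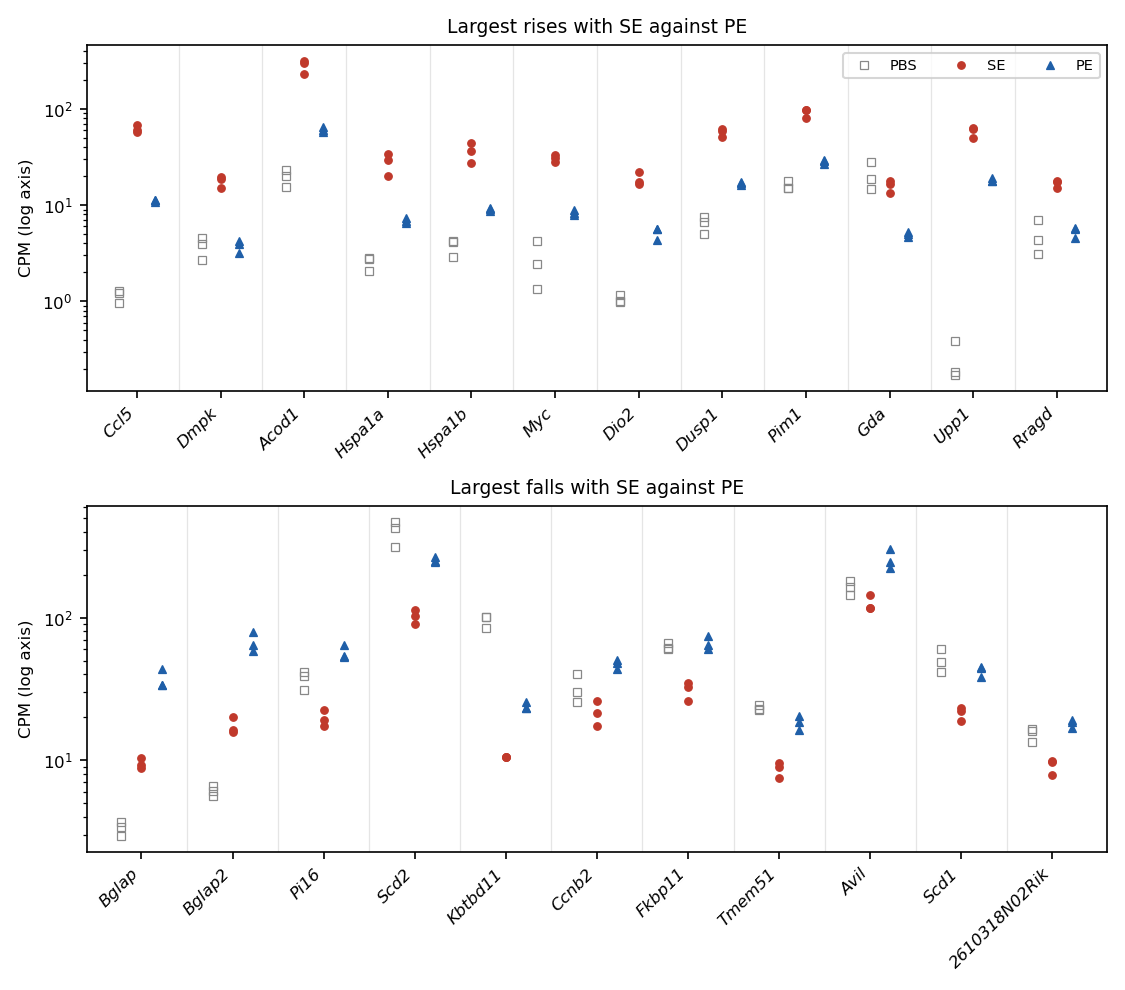
CPM of each library on a log axis for 12 of the largest rises (top) and 11 of the largest falls (bottom) with SE against PE, with 3 PBS libraries (open squares), 3 SE libraries (red circles) and 3 PE libraries (blue triangles) a gene. The genes were chosen so that SE and PE do not overlap, while PBS lies below both (Ccl5, Upp1), with PE (Dmpk), with SE (Gda), between (Pi16) or above both (Scd2, Kbtbd11).

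The genes that the study measured by PCR to define M1 and M2 macrophages gave a mixed picture and came from different cells. In this cell line with the peptides it reports Cxcl10, Ccl2, Il1b and a nitric oxide synthase gene (printed as Nos1) for M1. For M2 it reports Mgl2 there, under M2 conditions. The others, among them Tnf, Il6 and Il23a, it reports only for macrophages of transgenic mice with other stimuli. Here Nos2, Cxcl10, Ccl2 and Il1b were higher in every SE library than in every PE library. Nos2, the inducible nitric oxide synthase, was at 329.8, 289 and 329.8 CPM with SE and 202, 181 and 176 CPM with PE, against 5.88, 19.5 and 24.2 CPM with PBS. The 1.70-fold difference (log2 0.76, interval 0.19 to 1.34) missed the threshold with an adjusted p of 0.0537 in edgeR's quasi-likelihood test of the 9 libraries. It passed in the fit of the 6 peptide libraries alone (adjusted p = 1.24e-06 by the same test). Nos2 also passed in some fits that kept PBS. These were the fits without replicate 1 (adjusted p = 0.000104), without the low count filter and with protein-coding genes only (adjusted p = 0.0413). It was not called in the other alternatives, and the reason was not tested. Cxcl10, a chemokine of the interferon response, was called, at 8.50, 6.54 and 9.60 CPM with SE and 3.96, 3.38 and 3.16 CPM with PE (2.35-fold, adjusted p = 0.00133 by the same test). Il1b was also called but at a level of 0.536 to 1.15 CPM against 0.124 to 0.406 CPM, and its call was lost without replicate 3 (adjusted p = 0.129).

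Ccl2 and Tnf passed the adjusted p-value with folds under 1.5. Ccl2, a monocyte chemoattractant, was at 52.7, 52.3 and 56.1 CPM with SE and 36.0, 41.5 and 37.6 CPM with PE (1.40-fold), and Tnf at 68.2, 64.8 and 66.1 CPM against 49.8, 46.8 and 51.0 CPM (1.35-fold). Il23a, a subunit of interleukin 23, went the other way and was called lower with SE, at 1.81, 1.68 and 1.21 CPM against 2.74, 3.32 and 2.66 CPM. Without replicate 2 or without replicate 3 that call was lost (adjusted p = 0.0933 and 0.105). Il6 overlapped between the groups, at 1.90 to 2.31 CPM with SE and 1.97 to 2.92 CPM with PE, and the interval of its log2 fold change ran from -0.66 to 0.28. Of the M2 markers only Mgl2, a lectin, was tested. It was at 1.36 to 1.68 CPM against 1.33 to 2.14 CPM, with an interval of -0.71 to 0.24. Il12a, Il12b, Arg1, Chil3 and Ccl17 had at most 2 counts in any peptide library and were not tested.

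Inflammatory chemokines were mostly called higher with SE. Of 14 tested, 12 were called higher with SE and none lower, and the median log2 fold change was 1.31, against 4.48% of all genes called higher and a median of -0.01. Every member was higher with SE by its adjusted p-value, including Ccl2 and Ccl4, whose folds were under 1.5. Cxcl9, an interferon-induced ligand of CXCR3, was at 80.9, 68.4 and 82.1 CPM with SE and 29.2, 24.7 and 20.9 CPM with PE. Cxcl2, a neutrophil chemoattractant, was at 77.2, 64.3 and 74.7 CPM against 32.3, 32.9 and 29.5 CPM. The most abundant member, Ccl3, was at 837, 757 and 853 CPM against 425, 449.6 and 428 CPM. Cxcl11 was at 8.88 to 11.02 CPM against 2.64 to 3.58 CPM, from a count of 0 in all PBS libraries. Ccl9 was the one called member with PBS (231 to 245 CPM) above PE (118 to 139.9 CPM) and below SE (289 to 318 CPM).

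**Figure D3:**
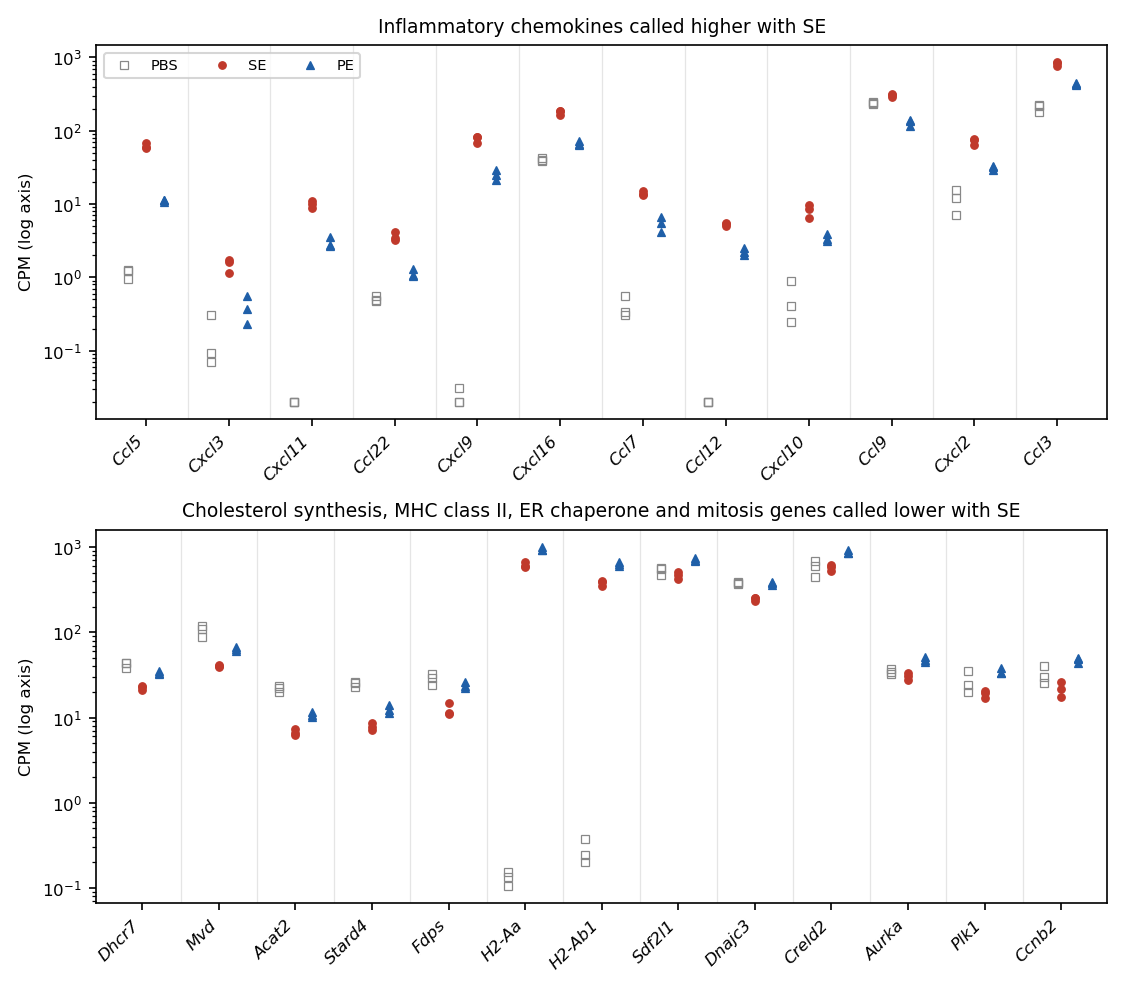
CPM of each library on a log axis for the 12 inflammatory chemokines called higher with SE (top) and for called members of the cholesterol synthesis, MHC class II, endoplasmic reticulum chaperone and mitosis lists (bottom), with PBS as open squares, SE as red circles and PE as blue triangles, and values of 0 drawn at 0.02 CPM. SE is above PE for every chemokine shown, and below PE for every gene of the lower panel, where PBS is above both peptide groups for Mvd and near 0 for H2-Aa and H2-Ab1.

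Of 9 receptors for chemoattractants 4 were called higher and none lower, against 4.48% and 1.6% of all genes. Ccrl2, a receptor that binds chemerin, was at 56.5, 47.7 and 55.0 CPM with SE and 15.6, 16.5 and 18.9 CPM with PE. Cxcr4, the receptor of CXCL12, was at 22.1, 18.4 and 18.3 CPM against 6.66, 7.32 and 6.58 CPM, with PBS at 7.56 to 9.20 CPM. The formyl peptide receptor gene Fpr2 was at 3.82 to 5.31 CPM against 1.25 to 2.20 CPM. In the list of inflammatory cytokines 5 of 17 were called higher and 2 lower, Il23a and Tnfsf9, of which Tnfsf9 (log2 fold change -0.61) fell under the fold limit without replicate 1 (-0.57). Il1rn, which encodes the natural antagonist of the interleukin 1 receptor, was the most abundant of the 5, at 304, 238 and 296 CPM with SE, 97.3, 89.1 and 79.3 CPM with PE and 142 to 178 CPM with PBS. Csf3, encoding G-CSF, was 5.01-fold higher with SE at levels of 0.996 to 1.78 CPM against 0.155 to 0.439 CPM.

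Genes known to be induced by endotoxin had 14 of 21 called higher with SE and none lower, against 4.48% and 1.6% of all genes. Their median log2 fold change was 0.98. Ptgs2, the inducible cyclooxygenase of prostaglandin synthesis, was at 128, 98.7 and 131 CPM with SE and 40.2, 51.9 and 30.9 CPM with PE, from 2.89 to 4.46 CPM with PBS. Its partner enzyme gene Ptges was at 6.84 to 9.03 CPM against 3.25 to 3.60 CPM. Edn1 (endothelin 1) was 6.54-fold higher but low, at 1.04 to 2.74 CPM against 0.203 to 0.466 CPM. Whether endotoxin was present in a peptide preparation was not measured in these data, and its part in the result was not tested. Acod1, described above, is the member of this list with the largest fold among those over 10 CPM. The 250 bases before its start site (RefSeq, GRCm38.p6, chr14:103046762-103047011, plus strand) hold 1 match to the NF-κB motif (GGGA and CC with 4 bases between them), shown in capitals because NF-κB is a known driver of endotoxin-induced genes:
Acod1: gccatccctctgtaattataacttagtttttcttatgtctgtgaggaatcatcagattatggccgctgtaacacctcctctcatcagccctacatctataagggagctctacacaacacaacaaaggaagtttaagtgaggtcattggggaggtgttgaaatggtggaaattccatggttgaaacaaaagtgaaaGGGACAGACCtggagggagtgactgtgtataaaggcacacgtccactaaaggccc

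Calls among genes of the NF-κB system itself are given beside the 4.48% of all genes called higher and the 1.6% called lower. By the adjusted p-value alone 12.6% of all genes were higher and 11.1% lower. None of 10 subunit and kinase genes was called, 5 were higher and 1 lower by the adjusted p-value alone, and Nfkb1 was at 90.2 to 100.4 CPM with SE and 89.0 to 105 CPM with PE, with an interval of the log2 fold change from -0.16 to 0.16. Of 12 feedback inhibitors 2 were called, both higher with SE, and 5 were higher and none lower by the adjusted p-value alone. Tnfaip3 encodes A20, which removes ubiquitin chains from NF-κB signalling proteins. It was at 19.7, 14.7 and 18.9 CPM with SE and 6.97, 8.41 and 6.54 CPM with PE, and PBS, at 11.2 to 14.7 CPM, lay between (2.43-fold, adjusted p = 3.25e-05 in the quasi-likelihood test). Nfkbiz was at 19.1 to 25.3 CPM against 10.2 to 13.2 CPM. Of 23 other NF-κB targets 8 were called higher and none lower, among them Gadd45b, a stress gene, at 93.5, 77.3 and 89.3 CPM against 28.9, 27.2 and 27.3 CPM. In the GENCODE annotation Tnfaip3 begins at 19015657 of chromosome 10, so nearly all of the stretch printed next lies inside the annotated gene. The window before the RefSeq start site of Tnfaip3 used here (chr10:19015411-19015660, minus strand) also holds 1 match to this motif, in capitals:
Tnfaip3: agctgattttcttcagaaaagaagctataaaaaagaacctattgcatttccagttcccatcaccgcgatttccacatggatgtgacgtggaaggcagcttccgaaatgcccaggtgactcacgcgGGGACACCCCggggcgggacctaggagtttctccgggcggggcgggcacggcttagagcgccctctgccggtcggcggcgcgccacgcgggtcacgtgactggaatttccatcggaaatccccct

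Immediate early genes and inhibitors of the MAP kinases had 9 of 28 called higher with SE and none lower, against 4.48% and 1.6% of all genes. Dusp4, another MAP kinase phosphatase, was at 247, 197 and 225 CPM with SE against 91.7, 93.1 and 80.6 CPM with PE, with PBS at 62.8 to 65.8 CPM. Egr1 was at 14.0 to 19.0 CPM against 5.98 to 7.78 CPM, and PE lay within the PBS range of 5.39 to 8.37 CPM. Zfp36, whose protein destabilises cytokine mRNAs, was at 60.6, 58.8 and 62.1 CPM against 33.9, 32.7 and 31.6 CPM. Jun had PBS highest, at 66.9 to 72.3 CPM, SE at 36.4 to 43.6 CPM and PE lowest at 23.3 to 25.7 CPM. The median log2 fold change of the list was 0.26, and Fos (0.25) and Fosb (0.11) were not called.

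The calls of interferon-induced genes are given by class, beside the 4.48% of all genes called higher and the 1.6% called lower. Guanylate binding proteins, GTPases that attack intracellular pathogens, had 5 of 11 called higher with SE and none lower. Gbp2 was at 245, 204 and 235 CPM with SE and 95.01, 92.3 and 89.9 CPM with PE, from 0.374 to 0.495 CPM with PBS. Gbp2b (222, 175 and 215 CPM against 88.1, 88.6 and 81.7 CPM) and Gbp4 (134, 109 and 146 CPM against 73.0, 71.5 and 67.2 CPM) gave the same picture. The related immunity-related GTPases had none of 9 called, with a median log2 fold change of -0.23. Their most abundant member, Irgm1, was at 114 to 124 CPM with SE and 118 to 138 CPM with PE, with an interval of -0.28 to 0.02.

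Class II antigen presentation was lower with SE in some of its genes. Of 12 genes of the class II pathway 2 were called lower, against 1.6% of all genes, and 10 were not called. By the adjusted p-value alone 7 were lower, against 11.1% of all genes, and none higher, with a median log2 fold change of -0.54. H2-Ab1, the β chain partner of H2-Aa, was at 348, 389 and 396 CPM with SE and 676, 633 and 607 CPM with PE, 1.69-fold lower (log2 -0.76, interval -0.91 to -0.61, adjusted p = 6.04e-06 by the quasi-likelihood test). H2-Aa, with the values given above, was 1.53-fold lower and fell under the fold limit without replicate 1 (log2 fold change -0.52). Ciita, the master regulator of this pathway, was at 9.15 to 10.99 CPM against 14.4 to 15.7 CPM and had a log2 fold change of -0.58 just inside the fold limit. The class I genes and immunoproteasome had no called gene among 15, a median of -0.16 and H2-D1 at 2861 to 3079 CPM with SE and 3151 to 3367 CPM with PE. By the adjusted p-value alone 6 of these 15 were lower, against 11.1% of all genes, and none higher. H2-DMb1 and H2-DMb2 are near-identical copies and are not read singly.

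Upstream of these genes, Irf1, a transcription factor that interferons induce, was called lower with SE, at 72.5, 76.9 and 83.1 CPM against 113, 115 and 135 CPM, with PBS at 16.2 to 17.97 CPM. Its log2 fold change of -0.65 was -0.56 without PE replicate 3, inside the fold limit. Jak1 was called higher, at 223, 180 and 206 CPM against 122, 128 and 106 CPM, while PBS (118 to 137 CPM) overlapped PE. Cish, a feedback inhibitor of cytokine receptors, was also called higher, at 0.436 to 0.664 CPM against 0.132 to 0.203 CPM, and its call was lost without replicate 3 (adjusted p = 0.0959). In all, 2 of 15 receptor and STAT pathway genes were called higher and 1 lower, against 4.48% and 1.6% of all genes.

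Genes of the type I interferon response had 12 of 29 called higher with SE and none lower, against 4.48% and 1.6% of all genes. Their median log2 fold change was 0.44. Irf7, the transcription factor that amplifies this response, was at 278, 278 and 272 CPM with SE and 117, 102 and 95.2 CPM with PE, with PBS at 53.5 to 71.1 CPM (2.63-fold, adjusted p = 5.06e-07 in the same test). Rsad2, which encodes the antiviral protein viperin, was at 36.2, 28.1 and 34.7 CPM against 13.8, 13.8 and 12.1 CPM. Members that were not called include Isg15 with a log2 fold change of 0.17 (interval -0.04 to 0.37) and Oas1g with -0.01 (interval -0.12 to 0.11). Ifit3 and Ifit3b are both counted among the 12 called but are near-identical copies. The window before the Rsad2 start site (chr12:26456453-26456702, minus strand) holds 1 match, in capitals, to the core of the interferon-stimulated response element (a pair of GAAA with 2 bases between them), read from the opposite strand:
Rsad2: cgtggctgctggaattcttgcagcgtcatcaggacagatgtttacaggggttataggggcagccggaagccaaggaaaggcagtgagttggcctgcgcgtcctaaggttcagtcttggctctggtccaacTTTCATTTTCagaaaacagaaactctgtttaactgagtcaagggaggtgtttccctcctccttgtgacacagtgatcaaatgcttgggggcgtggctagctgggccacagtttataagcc

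Matches to these motifs were counted on both strands in RefSeq windows from 250 bases before to 50 bases after each start site, as a description. The interferon-stimulated response element was in 3.44% of all 32851 windows, in 3.38% of those of the genes tested, in 7.24% of those of genes called higher with SE and in 2.05% of those of genes called lower. It was in 14 of the 23 windows of the type I interferon list and in 5 of 6 windows of the guanylate binding proteins and 6 of 7 of the immunity-related GTPases, which had no called gene. The NF-κB motif was in 20.7% of all windows, and in 26.3%, 25.7% and 25.6% of those of genes tested, called higher and called lower, with 8 of 13 windows in the list of feedback inhibitors and 7 of 19 in the endotoxin list. TGANTCA, the AP-1 motif, was in 9.48% of windows of genes called higher, 4.62% of those called lower, 5.23% of those tested and 7.81% of all windows. TGATGNAA, an ATF4 element, was in 3.97%, 7.18%, 2.45% and 3.97% of those. The GAS motif TTCNNNGAA was in 7.76%, 5.64%, 6.88% and 8.3%. The sterol response element (ATCAC and CCAC with 1 base between them) was in 0.234% of all windows and in none of the 20 of the cholesterol list, so no window is printed for it. Of the 688 and 245 called genes, 432 and 154 had a window, and a stretch could count for more than 1 motif.

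Some genes of sterol and fatty acid synthesis were lower with SE. Of 24 cholesterol synthesis and uptake genes 7 were called lower, against 1.6% of all genes, and 17 were not called. By the adjusted p-value alone 11 were lower, against 11.1% of all genes, and none higher, and the median log2 fold change was -0.25. Fdps, which makes farnesyl pyrophosphate, was at 11.2, 14.9 and 10.9 CPM against 22.2, 23.8 and 25.9 CPM. Mvd, which acts earlier in the same pathway, was at 39.0, 40.3 and 41.02 CPM against 60.3, 63.6 and 66.9 CPM, with PBS at 88.98 to 119 CPM. Among 17 fatty acid synthesis genes Scd1 and Scd2 were called lower and Fads3, a desaturase-related gene, higher at 3.08 to 3.29 CPM against 1.55 to 2.07 CPM. The other 14 were not called, and by the adjusted p-value alone 9 of the 17 were lower and 3 higher. The call of Fads3 was lost without replicate 2 (adjusted p = 0.066).

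Of 13 genes of lipid uptake and export on the efflux and LXR list, 4 were called higher, 1 (Apoe) was called lower and 8 were not called. The shares of all genes were 4.48% called higher and 1.6% called lower. The list had a median log2 fold change of 0.12. Cd36, a scavenger receptor for oxidised lipoproteins, was at 818, 697 and 839.6 CPM with SE and 363, 410 and 325 CPM with PE, from 71.7 to 108 CPM with PBS. Abca1, the cholesterol exporter, was at 5.87 to 6.91 CPM against 2.04 to 4.62 CPM, and PBS was highest at 11.7 to 13.7 CPM. Nr1h3, which encodes the sterol sensor LXRα, was at 9.94, 10.2 and 11.1 CPM against 6.42, 5.59 and 5.29 CPM.

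Stress pathways gave calls in both directions, beside 4.48% of all genes called higher and 1.6% called lower. Of 16 targets of NRF2, the regulator of antioxidant genes, 4 were called higher with SE and none lower. Hmox1, heme oxygenase 1, was at 1752, 1661 and 1631 CPM with SE, 778, 783 and 749.9 CPM with PE and 282 to 359 CPM with PBS. Slc7a11 (139 to 161 CPM against 75.0 to 91.6 CPM) and Gclm (132 to 138 CPM against 72.9 to 81.5 CPM), which serve glutathione synthesis, were also higher. Heat shock genes had 4 of 12 called higher, among them Hspa1a and Hspa1b, the copies read above as 1 signal. The constitutive chaperone gene Hspa8 was at 3563, 3061 and 3205 CPM with SE while PE (1384 to 1521 CPM) and PBS (1379 to 1552 CPM) covered the same range. Chaperones of the endoplasmic reticulum had 3 of 16 called lower and a median of -0.45. By the adjusted p-value alone 12 were lower, against 11.1% of all genes. Creld2 was at 525, 619.7 and 586 CPM against 859, 854 and 913 CPM, and Dnajc3 at 230.2, 254 and 253 CPM against 354, 387 and 377 CPM. These and Sdf2l1 were called just past the fold limit, and each lost its call without replicate 1 (log2 fold changes -0.54, -0.58 and -0.54). Of 23 genes of the integrated stress response 1, Pycr1, was called, and it was lower with SE.

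Complement had 7 of 12 genes called higher with SE and none lower, against 4.48% and 1.6% of all genes. C1qa, C1qb and C1qc, the chains of the recognition molecule C1q, were near 0 with PBS. C1qb was at 33.9, 34.6 and 32.5 CPM with SE and 18.2, 19.0 and 15.9 CPM with PE, and C3 at 195, 168 and 176 CPM against 115, 105 and 104 CPM. Cfb was called at 0.939 to 2.15 CPM against 0.541 to 0.745 CPM, and lost its call without replicate 1 (adjusted p = 0.322). Of 12 C-type lectin receptor genes 3 were called higher, among them Clec7a, which encodes the β-glucan receptor dectin 1, at 51.2 to 57.5 CPM against 29.0 to 33.9 CPM. Toll-like receptors and their adaptors had 1 of 20 called, a count near the 4.48% of all genes called higher. It was Ticam1, which encodes the adaptor TRIF, at 139, 135 and 135 CPM with SE and 91.6, 87.8 and 86.5 CPM with PE. Of 18 macrophage identity genes 2 were called higher, which were Adgre1 (206, 176 and 195 CPM against 95.8, 104 and 85.4 CPM), which encodes F4/80, and Itgam (319, 270 and 293 CPM against 187, 185 and 172 CPM). None of 5 Fc receptor genes, 6 NADPH oxidase genes or 17 inflammasome and cell death genes was called.

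Metabolic genes other than lipid ones differed between lists, and their counts are read against the 4.48% of all genes called higher and the 1.6% called lower. In arginine and polyamine metabolism 4 of 12 were called higher and none lower. Odc1, the first enzyme of polyamine synthesis, was at 498, 409 and 496 CPM with SE and 230.1, 216 and 203 CPM with PE. Arg2 was at 0.332 to 0.67 CPM with SE, with at most 2 counts in each PE library and 1.157 to 1.95 CPM with PBS, and no fold is given. Slc7a2, an arginine transporter, was at 0.483 to 0.771 CPM against 0.0658 to 0.155 CPM. Of 24 hypoxia and glycolysis genes 3 were called higher, Vegfa, Slc2a1 and Ero1l. Vegfa was at 74.8, 67.4 and 70.5 CPM against 39.8, 42.3 and 38.6 CPM, with PBS spread from 28.7 to 52.8 CPM. The calls of Slc2a1 and Ero1l were lost without replicate 3 (adjusted p = 0.162 and 0.0999). Mdh1, malate dehydrogenase, was lower with SE, at 240.2 to 260.3 CPM against 368 to 416 CPM, and its log2 fold change of -0.63 was -0.58 without SE replicate 1, inside the fold limit. None of 21 nuclear oxidative phosphorylation genes and 20 ribosomal protein genes was called. Of 11 iron genes 3 were called higher, including the iron exporter Slc40a1, at 100.3, 87.0 and 94.4 CPM against 41.2, 46.7 and 39.6 CPM.

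Cell cycle genes were called in both directions, beside 4.48% of all genes called higher and 1.6% called lower. By the adjusted p-value alone 12.6% of all genes were higher and 11.1% lower. Of 18 DNA replication genes 2 were called higher with SE and 11 were higher by the adjusted p-value alone, with none lower and a median of 0.40. Mcm6, a subunit of the replicative helicase, was at 56.9, 50.8 and 58.1 CPM with SE and 36.4, 35.7 and 35.4 CPM with PE. Of 18 mitosis genes 3 were called lower with SE, 10 were lower by the adjusted p-value alone and none was higher, with a median of -0.32. Plk1, a mitotic kinase, was at 17.01, 19.3 and 20.6 CPM against 37.8, 33.2 and 32.9 CPM, and Aurka, another, at 27.6, 31.1 and 33.6 CPM against 51.5, 47.7 and 44.4 CPM. PBS varied widely for some of these genes, with Mcm6 at 61.7 to 111 CPM and Plk1 at 19.8 to 35.2 CPM. Mcm6 and Aurka fell under the fold limit without replicate 3 (log2 fold change 0.58) and without replicate 1 (-0.50). Mki67, a gene active throughout the cycle, had a log2 fold change of 0.06 (interval -0.14 to 0.27).

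Genes of osteoclasts, the bone-resorbing cells that macrophages can become, had 5 of 17 called higher with SE, against 4.48% of all genes. Src was at 39.5, 34.3 and 32.8 CPM against 18.2, 18.3 and 19.8 CPM, and Ocstamp, needed for osteoclast fusion, at 5.40 to 6.23 CPM against 3.20 to 3.72 CPM, a call that was lost without replicate 3 (adjusted p = 0.145). Mmp9 was at 4.53 to 5.13 CPM with SE, 2.27 to 2.43 CPM with PE and 8.08 to 13.1 CPM with PBS. Among matrix and vessel growth genes 5 of 15 were called higher. Pgf, placental growth factor, had the largest fold of all listed genes, at 15.9, 12.2 and 13.7 CPM with SE and 1.35, 1.24 and 1.81 CPM with PE (9.50-fold, interval of the log2 fold change 2.68 to 3.81). It fell below the mean of 10 CPM required for the largest rises.

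Surface and regulatory molecules gave mixed counts, beside 4.48% of all genes called higher and 1.6% called lower. Among costimulatory and checkpoint molecules 2 of 11 were called higher and Tnfsf9 lower. Cd274, which encodes the checkpoint ligand PD-L1, was at 145, 123.3 and 126 CPM with SE and 71.3, 76.0 and 71.4 CPM with PE, with PBS at 14.2 to 16.4 CPM. Genes of alternative activation, a state driven by Il-4, had 3 of 10 called higher. One of these, Tgm2, a transglutaminase, was at 137, 127 and 137 CPM against 74.8, 75.8 and 79.5 CPM. Of 13 regulators of the IL-10 and SOCS type the 3 called were Dusp1, Tnfaip3 and Zfp36, all described above, and none was lower. Of 22 lysosomal genes only Gla, which encodes α-galactosidase A, was called, and it was higher (132, 115 and 129 CPM against 78.4, 80.7 and 77.1 CPM). That count is near the share of all genes called higher.

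Clec9a, a lectin listed among dendritic cell markers, was at 5.23 to 7.49 CPM with SE, 2.83 to 3.92 CPM with PE and 0 to 0.0352 CPM with PBS, and its call was lost without replicate 3 (adjusted p = 0.106). Of 13 genes encoded in mitochondria 1 was called lower, against 1.6% of all genes, and none higher. It was mt-Nd6, at 1.27 to 2.69 CPM with SE and 2.79 to 4.19 CPM with PE, and that call was lost without replicate 1 (adjusted p = 0.247). By the adjusted p-value alone 3 of the 13 were lower and none higher, against 11.1% and 12.6% of all genes. Mitochondrial genes took 1.62% to 1.95% of counts with SE and 1.77% to 1.87% with PE.

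Genes that the study itself named as specific to a peptide were counted too, and since it chose them on these samples among others they are not independent evidence of direction. Of all genes tested 4.48% were called higher and 1.6% lower with SE, and 11.1% were lower by the adjusted p-value alone. Of 24 tested genes named as raised with SE 14 were called higher, and of 17 named as lowered with PE 12 were called higher with SE. Of 19 named as raised with PE 3 were called lower with SE (Bglap, Dock3 and Pycr1), and the call of Dock3 was lost without replicate 3 (adjusted p = 0.251). Of 16 named as lowered with SE none was called, and 14 were lower with SE by the adjusted p-value with smaller folds, such as Ywhab at 113 to 127 CPM against 146 to 152 CPM.

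**Figure D4:**
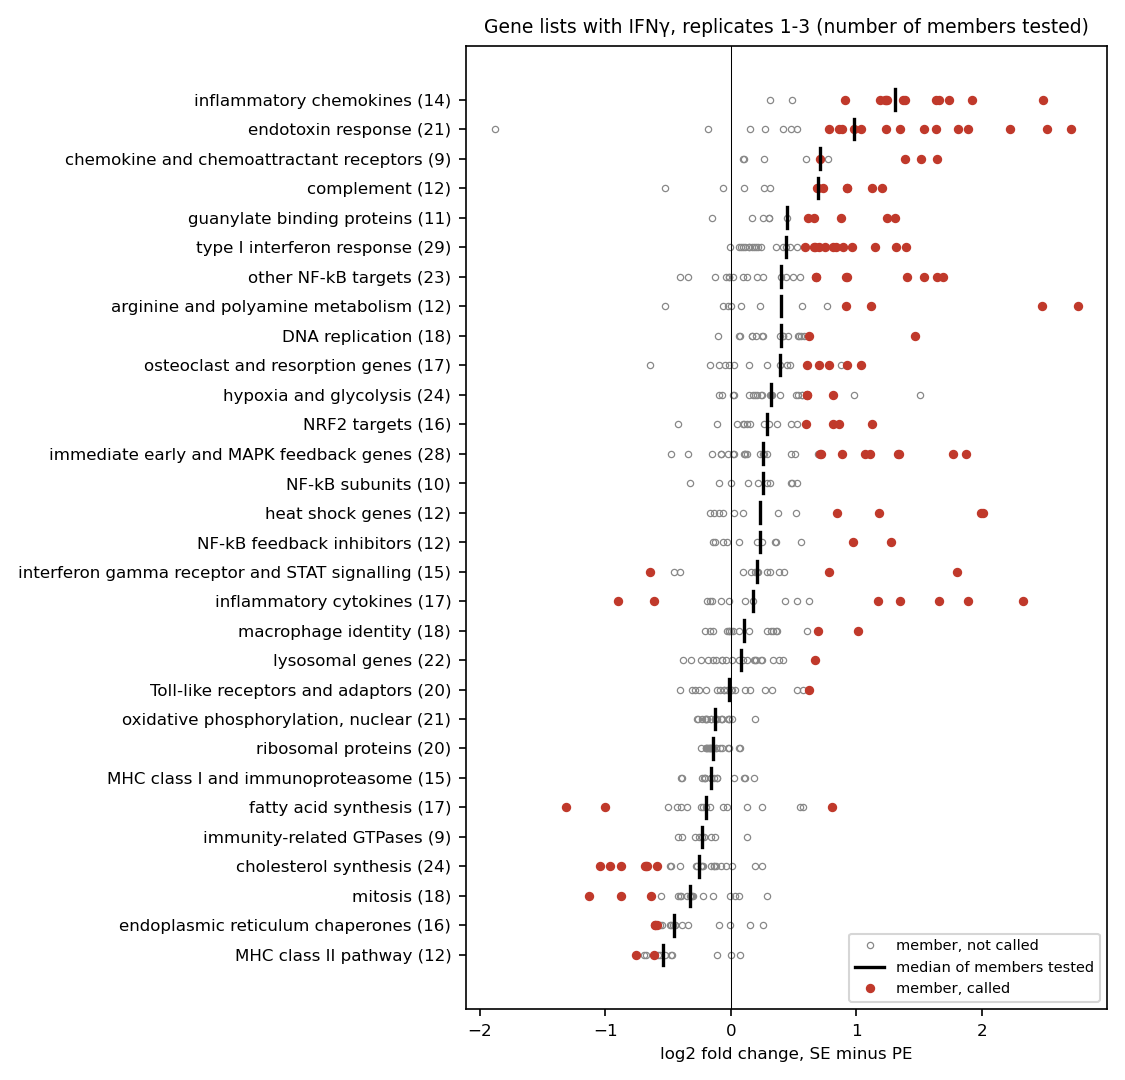
Log2 fold change of SE minus PE for the members of 30 gene lists, with called members as filled red circles, other members as open circles, the median as a black bar and the number of members tested in brackets. Inflammatory chemokines (median 1.31) and the endotoxin response (0.98) lie furthest to the right, and the MHC class II pathway (-0.54) and endoplasmic reticulum chaperones (-0.45) furthest to the left.

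Against PBS, whose libraries enter both contrasts, 3505 genes (22.8%) were called with SE and 3045 (19.8%) with PE. The 688 genes higher with SE than with PE had a median log2 difference from PBS of 0.89 with SE and -0.03 with PE. SE was called above PBS for 429 of them and below for 27, against 12.6% and 10.2% of all genes tested. PE was called above PBS for 169 and below for 149, against 10.3% and 9.54% of all genes. The 245 lower genes had medians of -0.69 with SE and 0.20 with PE. SE was called below PBS for 131 of them and above for 17, and PE below for 43 and above for 63. The genes are those that differed between the peptides in these same libraries. Opposite signs of these medians, and any excess of these counts over the shares of all genes, are partly set by that choice.

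The same peptides were given with Il-4, the cytokine of the anti-inflammatory M2 state, at the same peptide dose and for the same time. There 0 of 12350 genes were called between SE and PE in replicates 1–3 by edgeR's quasi-likelihood test, with 557 at an unadjusted p-value under 0.05, and DESeq2 called 0 with 571. Replicate numbers paired the Il-4 libraries (correlations of deviations of 0.188 to 0.509), and a fit with the number as a block also called 0, with 1300 at an unadjusted p-value under 0.05. The difference between cytokines was tested in 1 model of 12 libraries, where 1078 of 15204 genes (7.09%) passed an adjusted p-value of 0.05, and 2184 with the replicate number as a block within each table. This count rested on single replicates, since it was 29 without replicate 3 and 118 without replicate 2. Of the genes called with IFNγ, 285 of 682 higher and 113 of 242 lower ones passed it, with medians of the log2 fold change with Il-4 of 0 and 0.02. Those genes were chosen for their difference with IFNγ, which is one side of the test, so the share is not read against 7.09%.

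Ccl5 in the Il-4 libraries was at 1.94, 1.72 and 1.17 CPM with SE and 1.53, 1.22 and 1.06 CPM with PE, and its log2 fold change was 2.10 higher with IFNγ than with Il-4 (adjusted p = 0.000371 for the difference). Dusp1 was at 11.9, 7.67 and 8.75 CPM against 11, 9.73 and 6.97 CPM, and Scd2 at 547, 454 and 510.3 CPM against 606, 520.3 and 541 CPM. Among the 24 largest rises and falls with IFNγ, Scd1 (adjusted p = 0.0533) and Bglap (0.252) did not pass the test of the difference and the other 22 did. These 24 were also chosen for their difference with IFNγ, so that number is no result about them, and calls by this test depended on single replicates as given above. None of the 9 M1 and M2 markers tested did. The tables were counted separately, and genes annotated as pseudogenes took 12.1% to 12.7% of counts in the IFNγ libraries and 0.396% to 0.524% in the Il-4 libraries. The methods state uniquely aligned reads, but whether reads with several alignments were counted in the IFNγ table was not tested. Levels of near-identical copies differed between the tables. Hspa1a had a mean of 27.8 CPM with SE and IFNγ and 0.417 CPM with SE and Il-4, and Bglap2 had 67.3 CPM with PE and IFNγ and 0.332 CPM with PE and Il-4, so for such copies a difference between cytokines and a difference in counting cannot be told apart.

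**Figure D5:**
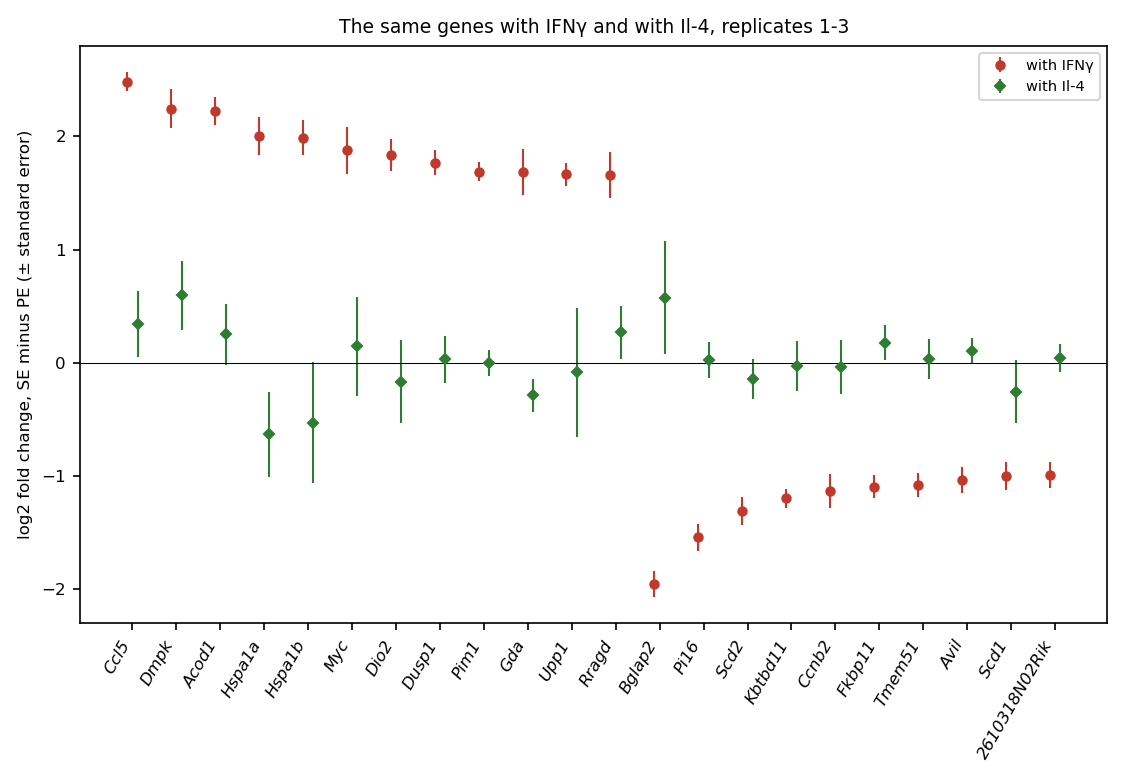
Log2 fold change of SE minus PE, with its standard error, for the largest rises and 10 of the falls with IFNγ (red circles) and for the same genes with Il-4 (green diamonds), in replicates 1–3 of each table. Bglap is left out because it was not tested with Il-4, and the Il-4 values lie between -0.63 and 0.60.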

How the data were processed

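RNA-seq libraries of RAW264.7 cells were stranded and poly(A)-selected by the study's methods. The deposited values were whole-number counts per gene, which the authors made with featureCounts and GENCODE annotation of GRCm38.p5, by their methods from uniquely aligned reads. The aligner is not given in the sources used here. One table held the IFNγ samples and one the Il-4 samples. Of 49568 gene names 47214 (95.25%) were matched by symbol to GENCODE M21, and 26 names had turned into dates. Pseudogenes and near-identical copies held counts in the IFNγ table but hardly any in the Il-4 table, so reads with several alignments may have been counted in the former, and values of such genes are uncertain.

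Groups came from the sample labels. The counts of 9 libraries (PBS, SE and PE, replicates 1–3) were analysed with edgeR 4.0.16 in R 4.3.3 (TMM, filterByExpr, glmQLFit, glmQLFTest, Benjamini-Hochberg) after tests on simulated data. The limits for a call, 0.05 for the adjusted p and 1.5 for the fold, are those of the study. CPM values are scaled by TMM, except those of replicates 4–6. A count of 0 allows 3 counts at 95% confidence, counting error only. Replicate numbers did not pair the SE and PE libraries (correlations of deviations -0.064 to 0.006). In the Il-4 table they did. 

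Named genes were the M1 and M2 PCR markers, the 12 largest called rises and falls with at least 10 CPM and no overlap, and up to 3 called members of each of 56 gene lists, or its most abundant tested member. Some genes that these rules name are not reported here. Other genes of the lists are named as examples chosen after their values were seen. The groups, lists and rules were chosen with earlier results of these data known. Alternatives were RLE and upper quartile scaling, DESeq2 1.42.0, other filters and library sets, the replicate block, protein-coding genes only, and leaving out replicates.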

Additional observations from a re-analysis of the deposited data

Results flagged for a closer look

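The difference between SE and PE itself differed between cytokines in 1078 genes and between replicates 1–3 and 4–6 of the IFNγ table in 4856 of 16845 genes (28.8%), each tested as an interaction in edgeR. The second count involves SE libraries that lacked the IFNγ response in replicates 4–6.

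The following genes are given because their log2 fold change of SE minus PE with IFNγ differed from that with Il-4. They come from the 24 largest rises and falls with IFNγ, so the size of the excess is partly set by that choice. The count of genes past this test rested on single replicates and was 29 without replicate 3. The excess with IFNγ was 2.10 for Ccl5, 1.61 for Dmpk, 1.94 for Acod1, 1.69 for Myc, 1.97 for Dio2, 1.70 for Dusp1, 1.65 for Pim1, 1.94 for Gda, 1.71 for Upp1 and 1.35 for Rragd. It was 2.61 for Hspa1a and 2.49 for Hspa1b, near-identical copies for which, as given above, cytokine and counting cannot be told apart. Among the falls it was -2.56 for Bglap2, also such a copy, -1.60 for Pi16, -1.20 for Scd2, -1.21 for Kbtbd11, -1.13 for Ccnb2, -1.31 for Fkbp11, -1.15 for Tmem51, -1.18 for Avil and -1.07 for 2610318N02Rik.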

How the results depend on the processing

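The count of genes called between SE and PE depended on the threshold. It was 933 with 688 higher and 245 lower as reported, 3628 (1932 and 1696) with no fold limit, 351 (284 and 67) at a fold limit of 2 and 233 (209 and 24) when the fold limit was itself tested with glmTreat. Leaving out replicates gave 600 to 1038 calls, 457 to 783 higher and 143 to 266 lower, the lowest without replicate 3 of every group. The count was within 1.5 times of the reported one under the other scalings, filters and library sets. With the replicate number as a block it was 906, although the numbers did not pair these SE and PE libraries. For the difference between cytokines the count of 1078 became 2184 with the replicate block and 1793 with DESeq2, and 29 to 1324 when a replicate was left out. Of 2230 values of single genes 2098 kept direction and call, 120 lost and 4 gained a call, and 8 changed sign. All 8 were Nfkb1, whose log2 fold change was near 0 (0.0043 with RLE scaling and DESeq2, 0.001 with a minimum of 10 counts, 0.01 with 18 libraries, and -0.0702 to 0.0697 when replicates were left out). The causes were not tested.

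Medians of log2 fold changes over lists moved in few cases. With upper quartile scaling the NADPH oxidase median was 0.0829. With no filter the median was 0.69 for M2 markers, 0.56 for arginine metabolism, 0.49 for complement, 0.61 for extracellular matrix, -0.001 for histones, 0.37 for T and NK cell markers and 0.33 for neutrophil markers. With at least 10 counts in every library, which removes genes that PBS libraries lack, it was -0.11 for MHC class II, 0.31 for guanylate binding proteins, -0.0115 for cytokines, 0.16 for arginine metabolism, 0.31 for complement, -0.66 for dendritic cell markers and 0.71 for genes named as lowered with PE. With 18 libraries it was 0.015 for histones and 0.79 for dendritic cell markers.

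Leaving out replicates gave medians of -0.19 to -0.10 for MHC class I, 0.59 to 0.80 for chemokine receptors, 0.22 to 0.33 for immediate early genes, 0.61 to 0.74 for complement, 0.18 to 0.29 for the IFNγ receptor pathway, 0.38 to 0.51 for type I interferon genes, 0.19 to 0.28 for NF-κB subunits, 0.18 to 0.31 for their feedback inhibitors, 0.10 to 0.19 for LXR targets, 0.31 to 0.47 for arginine metabolism, 0.0839 to 0.13 for NADPH oxidase, -0.0812 to 0.0523 for cell death genes, 0.29 to 0.36 for iron, 0.0856 to 0.15 for macrophage identity, -0.12 to 1.00 for dendritic cell markers, -0.076 to 0.0265 for costimulatory molecules, -0.0224 to 0.22 for histones, -0.31 to -0.20 for cholesterol synthesis and 0.19 to 0.27 for IL-10 regulators. For the study's own lists they were 0.70 to 0.85 (raised with SE), -0.36 to -0.29 (lowered with SE) and -0.31 to -0.19 (raised with PE).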

Other observations

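Some genes outside the lists stood out in the peptide comparison and were chosen after their values were seen. Ighg2c, an immunoglobulin constant region gene, was at 5.45, 4.59 and 4.95 CPM with SE, 0.575, 0.372 and 0.526 CPM with PE and 0.034 to 0.124 CPM with PBS. Marker sums for B cells were at most 0.372 CPM in these libraries. Ranbp3l was at 0.872, 0.872 and 0.936 CPM with SE, 3.14, 3.82 and 4.77 CPM with PE and 9.32 to 10.1 CPM with PBS. Eps8l1, related to an actin regulator, was at 0.972 to 1.46 CPM with SE and 0.0338 to 0.197 CPM with PE.

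Gm4518, a processed pseudogene, had the largest fitted log2 fold change of all genes (5.93, interval 2.52 to 9.35) and was called, but this came from 1 library. It was at 69.2 CPM in SE replicate 1 and at 0.369 and 0.634 CPM in the other SE libraries, with PE at 0.263 to 0.609 CPM.

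Of the 688 genes called higher with SE 558 were annotated as protein-coding and 63 as processed pseudogenes, and of the 245 called lower 187 and 14. Among the 14410 tested genes that were not called, 10579 were protein-coding and 2276 were processed pseudogenes.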
